A study of Mus musculus with 17 samples.

Results

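The microRNAs miR-103 and miR-107 were followed in small RNAs (smRNAs) from fecal exosomes of mice that lack interleukin 10 (IL-10 KO, C57BL/6J background), a mouse model of inflammatory bowel disease. The arms were chosen by name: mmu-miR-103-3p, mmu-miR-103-1-5p, mmu-miR-103-2-5p, mmu-miR-107-3p and mmu-miR-107-5p, written below without the species prefix. Of these 5 arms, the 3p arms miR-103-3p and miR-107-3p were among the 1487 smRNAs of the count table, and the 3 5p arms were not analysed here. The smallest maximum count of any listed smRNA was 10.

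Every mouse carried the IL-10 deletion. The mice were obtained at 4 weeks of age and housed singly, and their ages at collection are not given in the sources used here. Fecal pellets of single mice were homogenised and filtered, vesicles were precipitated from the filtrate, and their RNA was sequenced. At the start-point 7 males and 3 females gave 1 library each, 10 in all. The 7 end-point libraries are from 4 of the same males, with 2 libraries labelled mouse 1, and 2 of the same females. No wild-type library was analysed here.

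A microRNA (miRNA) is a short RNA that guides Argonaute proteins to messenger RNAs, which it recognises mainly through its seed, bases 2 to 8. The hairpins of miR-103 and miR-107 lie in introns of pantothenate kinase genes, whose products catalyse the first step of coenzyme A synthesis. These miRNAs have been studied in liver and fat for their part in insulin sensitivity, where caveolin-1 is a known target, and in many cell types as regulators of Dicer.

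The mature sequences show how alike the arms are, and therefore which counts can be told apart. They are from RefSeq (GRCm38.p6), 5′ to 3′, with the seed in capitals, and all 5 arms had an entry.
miR-103-3p: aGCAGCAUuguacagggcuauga
miR-107-3p: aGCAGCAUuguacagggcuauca
miR-103-1-5p: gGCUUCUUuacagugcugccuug
miR-103-2-5p: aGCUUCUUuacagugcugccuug
miR-107-5p: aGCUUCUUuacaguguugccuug

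The 3p arms share the seed GCAGCAU, which no other of 1679 mature mouse miRNA names in the RefSeq table holds. They differ by 1 substitution, G22C from miR-103-3p to miR-107-3p, counted from base 1 at the 5′ end. A read that ends at base 21 or earlier therefore fits either arm. How the authors assigned such reads is not given in the sources used here, so each arm's count carries this uncertainty and their sum is given as well. The 5p arms share the seed GCUUCUU, held by no other name, with G1A from miR-103-1-5p to miR-103-2-5p and C16U from miR-103-2-5p to miR-107-5p.

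The hairpins, with both arms in capitals, show that a 5p and a 3p arm of this family come from each of 3 genes.
Mir103-1: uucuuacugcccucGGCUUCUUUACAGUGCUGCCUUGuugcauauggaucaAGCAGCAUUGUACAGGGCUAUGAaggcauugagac
Mir103-2: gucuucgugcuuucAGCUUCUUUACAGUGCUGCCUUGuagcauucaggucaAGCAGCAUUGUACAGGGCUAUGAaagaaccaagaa
Mir107: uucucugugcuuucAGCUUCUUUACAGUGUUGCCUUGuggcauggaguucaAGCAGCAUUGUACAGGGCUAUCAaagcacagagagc

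Mir103-1 lies at chr11:35782396-35782481 on the plus strand, in an intron of Pank3. Mir103-2 lies at chr2:131288052-131288137 on the plus strand, in an intron of Pank2, and Mir107 at chr19:34820687-34820773 on the minus strand, in an intron of Pank1. Each lies on the strand of its host gene (GENCODE vM21 on GRCm38). Because Mir103-1 and Mir103-2 give the same 3p arm, a count of miR-103-3p does not say which of these 2 genes it came from. The bases AGCAGCA, which open both 3p arms at base 1, are also the seed (bases 2 to 8) of miR-15a-5p and miR-16-5p, the reason these are treated as relatives further on. In the next sequences AGCAGCA is in capitals.
miR-15a-5p: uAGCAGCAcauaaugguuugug
miR-16-5p: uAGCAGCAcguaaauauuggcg

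Library totals ran from 32320 to 178075 counts. A floor of 3 counts was set for a share, although lower counts occur. This floor was 16.8 CPM (counts per 1000000 library counts) in the deepest library and 92.8 CPM in the shallowest. Under 75000 counts were held by end-point libraries 1, 3 and 7 and by no start-point library. Of the intestinal epithelium-associated miRNAs in a marker list, 8 of 9 were in the table, with a summed level from 3226 to 19689 CPM at the start-point and from 2970.3 to 38181 CPM at the end-point. The leukocyte list had 4 of 6 members in the table (387 to 3361 and 237 to 3114 CPM), the smooth muscle and stroma list 3 of 4 (204 to 1458 and 308 to 12121 CPM), the red cell list 2 of 3 (149 to 1006 and 12.4 to 530 CPM) and the liver and exocrine pancreas list 3 of 3 (499.7 to 1804 and 785 to 5755 CPM). The red cell marker miR-451a was at 0 in 11 of 17 libraries.

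The pair was unevenly represented in the counts as assigned, and how reads that fit both arms were assigned is not given in the sources used here. Over the 17 libraries miR-107-3p averaged 972 CPM, rank 187 of 1487 smRNAs, and miR-103-3p averaged 95.6 CPM, rank 1223, where the median smRNA averaged 233 CPM. In total, 1830 counts were assigned to miR-107-3p and 213 to miR-103-3p. The count of miR-107-3p was the higher one in 16 of 17 libraries. The exception was male start-point library 6, with 6 counts of miR-107-3p and 9 of miR-103-3p.

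miR-103-3p was a low-count miRNA at both time points. At the start-point it ran from 29.2 CPM in library 7 (5 counts, 95% Wilson interval 12.5 to 68.3 CPM) through a median of 105 CPM to 392 CPM in library 3 (58 counts, 303 to 506 CPM). At the end-point it ran from 24.7 CPM in library 2 (4 counts, 9.61 to 63.5 CPM) through a median of 36.5 CPM to 72.8 CPM in library 6 (11 counts, 40.7 to 130 CPM). These intervals cover counting error only. End-point library 2 lay below every start-point library and the other 6 end-point libraries lay within the start-point range, so the groups overlapped, and 6 of 7 end-point libraries held 10 counts or fewer. In end-point libraries 1, 3 and 7 its 2, 1 and 2 counts were under the 3-count floor.

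miR-103-3p averaged 133 ± 107.4 CPM over the start-point libraries (SD, n = 10) and 42.6 ± 17.5 CPM over the end-point libraries (SD, n = 7). The log2 fold change, end-point over start-point with TMM scaling, was -0.89 ± 0.49 (SE), with an adjusted p of 0.164 in edgeR's quasi-likelihood test across all smRNAs, so it did not pass the threshold of 0.05. With library totals as the only scaling it was -1.57, with an edgeR adjusted p of 0.0209, which passes. That scaling moved the median of all tested smRNAs from -0.18 to -0.65. Relative to these medians miR-103-3p was at -0.71 and -0.92. Leaving out the 3 libraries under 75000 counts brought it to -0.28 (edgeR adjusted p 0.696), and their depth's part in the main value was not tested further. The filter on low counts asked for at least 76.8 CPM in 7 libraries, and miR-103-3p met it in 7, all of them from the start-point. It therefore entered the test through the group in which it was higher, which limits what its fall, or the p that passed, can show. Without this filter, with TMM scaling, its log2 fold change was -0.93 (edgeR adjusted p 0.153).

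miR-107-3p varied widely within both time points and did not shift in one direction. At the start-point it ran from 64.1 CPM in library 7 (11 counts, 95% Wilson interval 35.8 to 115 CPM) through a median of 677 CPM to 3370.2 CPM in library 8 (421 counts, 3064 to 3707 CPM). At the end-point it ran from 154 CPM in library 4 (18 counts, 97.4 to 243 CPM) through a median of 1224 CPM to 1795 CPM in library 3 (58 counts, 1389 to 2319 CPM). The whole end-point range lay inside the start-point range.

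miR-107-3p averaged 1007 ± 1089.6 CPM over the start-point libraries (SD, n = 10) and 921 ± 703 CPM over the end-point libraries (SD, n = 7). Its log2 fold change was 0.36 ± 0.59 (SE; edgeR adjusted p 0.667), and with library totals only it was -0.13 (edgeR adjusted p 0.898). Relative to the median of all tested smRNAs these values were 0.54 and 0.52. At the end-point the 3 libraries under 75000 counts held 1224, 1582 and 1795 CPM, and the 4 deeper ones ran from 154 to 1245 CPM. The part of depth in this was not tested, and without the 3 libraries the log2 fold change was 0.13.

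**Figure D1:**
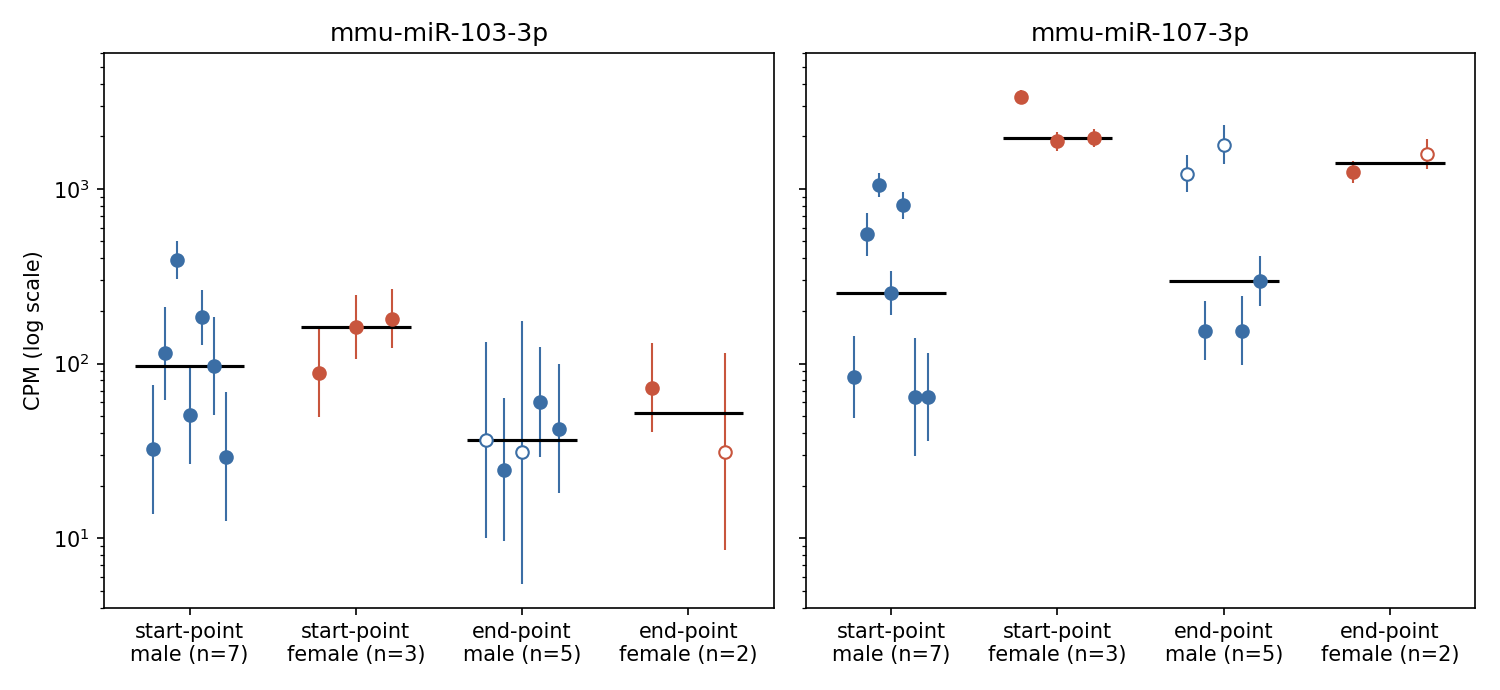
Level of miR-103-3p (left) and miR-107-3p (right) in each of 17 libraries, in CPM on a log axis, by time point and sex. Points are libraries (blue male, red female), vertical bars 95% Wilson intervals (counting error only), black lines group medians, and open points the 3 libraries under 75000 counts. The female start-point libraries hold 1875 to 3370.2 CPM of miR-107-3p, above the males at 64.1 to 1053 CPM, while miR-103-3p overlaps between the sexes.

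Neither of the 2 arms passed the test of time point, and neither reached an unadjusted p under 0.05 in edgeR or in DESeq2's Wald test (0 of 2 each). Over all smRNAs tested, edgeR called 428 of 1270, or 33.7%, with 221 (17.4%) of them rising and 207 (16.3%) falling. A block for mouse identity brought the count over all smRNAs to 104. The sum of the arms averaged 1139.9 ± 1121 CPM over start-point libraries (SD, n = 10) and 964 ± 701 CPM over end-point libraries (SD, n = 7). It does not depend on how reads were split between the arms, provided that each shared read was counted once.

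Within the 6 mice with libraries at both time points, the arms moved in no common direction. On the log2 CPM scale with TMM factors miR-103-3p was higher at the end-point in 3 mice and lower in 3, and miR-107-3p was higher in 4 and lower in 2. In CPM without these factors miR-103-3p was higher in 1 and lower in 5, and miR-107-3p was higher in 3 and lower in 3, so the direction in some mice turned with the scaling. The largest fall of miR-103-3p was in male mouse 3, from 392 to 30.9 CPM, a level resting on 1 count in a library under 75000 counts. On the log2 scale the largest rises of miR-107-3p were in male mice 1 and 7, from 83.9 to a mean of 689 CPM over the 2 end-point libraries labelled mouse 1, and from 64.1 to 295 CPM. Those 2 libraries held 1224 and 154 CPM, and the first was under 75000 counts. In females 9 and 11, miR-107-3p went from 3370.2 to 1245 CPM and from 1875 to 1582 CPM.

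**Figure D2:**
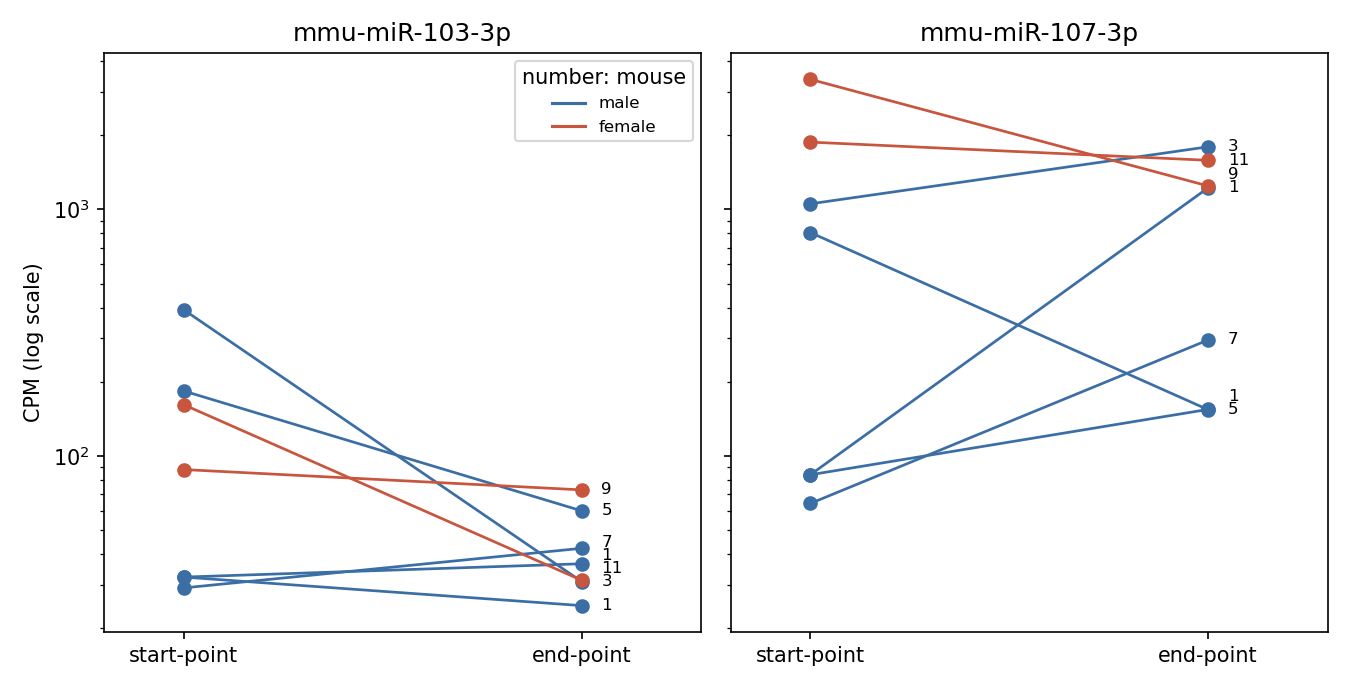
Level of miR-103-3p (left) and miR-107-3p (right) at the start-point and the end-point in the 6 mice with both, in CPM on a log axis. Each line joins libraries of 1 mouse, numbered at its end; mouse 1 has 2 end-point libraries. For miR-107-3p the males at 64.1 and 83.9 CPM at the start-point lie higher at the end-point, and the females lie lower on this scale.

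miR-107-3p separated the sexes at the start-point, where each mouse gave 1 library, though the difference did not pass after adjustment. Female start-point libraries 8, 9 and 10 were at 3370.2, 1875 and 1954 CPM. The 7 male libraries ran from 64.1 through a median of 253 to 1053 CPM, so every female library lay above every male library. Such a separation was common in these libraries, being shown by 227 of 1462 smRNAs, or 15.5%, with 6, or 0.41%, showing the reverse. At the end-point the sexes overlapped, with 1245 and 1582 CPM in the 2 females and 154, 154, 295, 1224 and 1795 CPM in the 5 male libraries.

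The log2 fold change of miR-107-3p, female over male with time point as a covariate, was 1.70 ± 0.52 (SE), from means of 2005 CPM in 5 female libraries and 541 CPM in 12 male libraries. Its unadjusted p was 0.0036 and its adjusted p 0.394 in edgeR's quasi-likelihood test, so it did not pass. In that fit 0 of 1462 smRNAs were called, or 0%, with 140 at an unadjusted p under 0.05, while DESeq2's Wald test called 23 and gave miR-107-3p an adjusted p of 0.0517. This fit counts mice with several libraries more than once. Among start-point libraries alone it was 1.92 ± 0.71 (SE; edgeR adjusted p 0.224), and an exact two-sided test over 120 permutations of the sex labels gave p = 0.025, or 0.075 when adjusted over 6 exact tests. At the end-point it was 1.34 ± 0.74 (SE; edgeR adjusted p 0.953), with an exact permutation p of 0.143, where 2 against 5 libraries can give no less than 0.0476. The 5 male end-point libraries come from 4 mice, and both end-point tests treated them as independent. The comparisons of sex within a single time point were added after the values were seen. The TMM factors of female start-point libraries were 1.48 to 1.92 and those of the males 0.763 to 1.27. Relative to the median of all smRNAs, the difference was 1.75 with TMM scaling and 1.52 with library totals only. The epithelium list had a median log2 fold change, female over male, of -1.58 over 8 members, beside -0.06 over all smRNAs. The leukocyte list was at -0.67 and the liver and exocrine pancreas list at -0.81. The smooth muscle and stroma list was at 0.80 and the red cell list at 1.06, each of these lists over 2 to 4 members. The part of any list in the result was not tested.

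miR-103-3p showed no such separation. Female start-point libraries held 88.1, 161 and 180.2 CPM, and the males ran from 29.2 through a median of 96.6 to 392 CPM, which encloses the females. Its log2 fold change, female over male, was -0.25 ± 0.54 (SE), with an edgeR adjusted p of 0.902. It was 0.26 with library totals only and 0.086 without start-point library 3, so its sign was not fixed by these data. The interaction of sex and time point gave 0.71 ± 1.11 (SE) for miR-103-3p and -0.67 ± 1.15 (SE) for miR-107-3p, with edgeR adjusted p of 0.913 and 0.916. The interaction fit, too, was added after the values were seen.

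The ratio of the arms within a library does not depend on scaling, and it asks whether they moved by the same amount. It does depend on how reads that fit both arms were assigned, which is not given in the sources used here. The log2 ratio of miR-103-3p to miR-107-3p, with 0.5 added to each count, ran from -5.20 to 0.55 at the start-point and from -5.34 to -1.30 at the end-point. Its mean was -2.19 ± 1.58 (SD, n = 10) and -3.70 ± 1.56 (SD, n = 7), a difference of -1.51 (exact permutation test, two-sided, p = 0.0718, or 0.144 adjusted over 6 exact tests). The ratio was lower at the end-point in 4 of 6 mice, with a mean difference within mice of -1.28. In end-point libraries 1, 3 and 7, those under 75000 counts, it was -4.75, -5.29 and -5.34. The 4 deeper end-point libraries ran from -4.03 to -1.30, and without the 3 libraries the difference between time points was -0.44, with an exact permutation p of 0.61. In male libraries only it was -1.91, with an exact permutation p of 0.0227 that is not among the 6 adjusted together. That test treated libraries of the same mouse as independent. The male end-point libraries include 1 and 3, both under 75000 counts, and the deeper libraries 2, 4 and 5 were at -2.50, -1.30 and -2.69.

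At the start-point the ratio separated the sexes. It was -5.20, -3.51 and -3.41 in the 3 females and between -2.26 and 0.55 in the 7 males. The means were -4.04 ± 1.00 (SD, n = 3) and -1.40 ± 0.98 (SD, n = 7), a difference of -2.64. The exact permutation test (two-sided) gave p = 0.00833, the least that 3 against 7 libraries allow. Adjusted over 6 exact tests it was 0.05, which is not under the threshold of 0.05. This comparison was added after the values were seen. In CPM, miR-107-3p alone also separated the sexes there, as did 15.5% of 1462 smRNAs in the same direction. How often ratios of other pairs of smRNAs do so was not tested. Expressed as a share, miR-107-3p held 93.7 ± 3.27% (SD, n = 3) of the counts of the pair in females and 71.6 ± 15.1% (SD, n = 7) in males at the start-point.

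**Figure D3:**
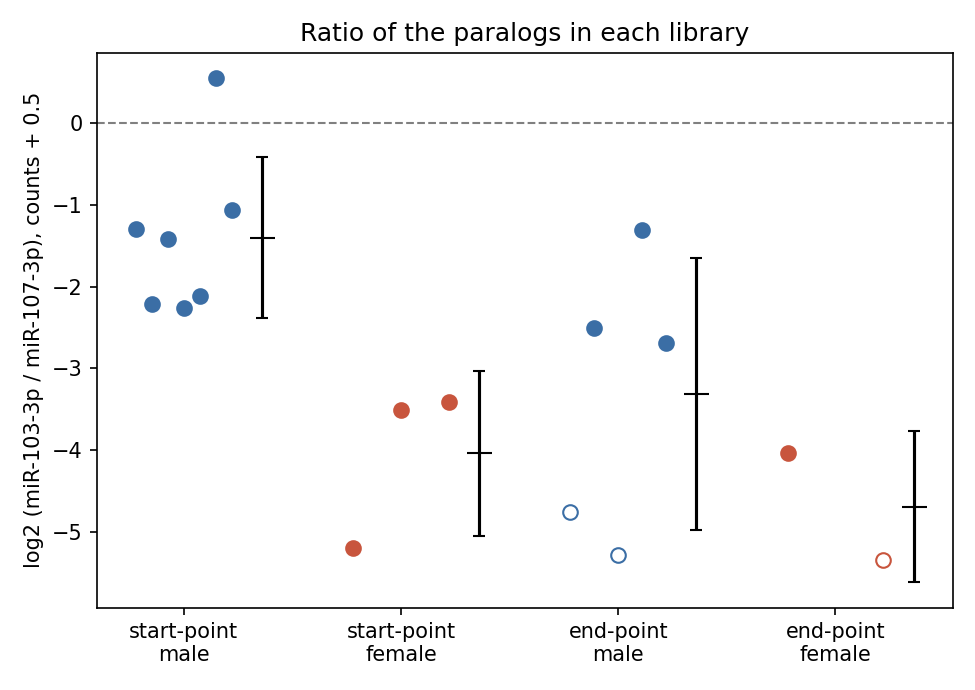
Log2 ratio of miR-103-3p to miR-107-3p in each library, from counts with 0.5 added, by time point and sex. Points are libraries, open points those under 75000 counts, and bars the mean ± SD of each group. The dashed line at 0 marks equal counts, and 1 male start-point library, at 0.55, lies above it.

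No correlation of the arms across libraries passed its test. Over 17 libraries Pearson's r of log2 CPM was 0.07 and Spearman's rho -0.03, with permutation p of 0.795 and 0.898. These values moved with the scaling and with the shallow libraries. With library totals only, r was 0.38 and rho 0.34 (permutation p 0.136 and 0.187), and without the libraries under 75000 counts r was 0.40 and rho 0.35 (permutation p 0.152 and 0.226). Without start-point libraries 3 and 5, farthest from the median of miR-103-3p, r was -0.09. Within time points r was 0.44 over 10 start-point libraries and -0.49 over 7 end-point libraries, with permutation p of 0.208 and 0.241 and adjusted p of 0.421 for both over 7 such correlations. Mouse 1 gave 3 of the libraries and 5 other mice gave 2 each, so the points are not fully independent.

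**Figure D4:**
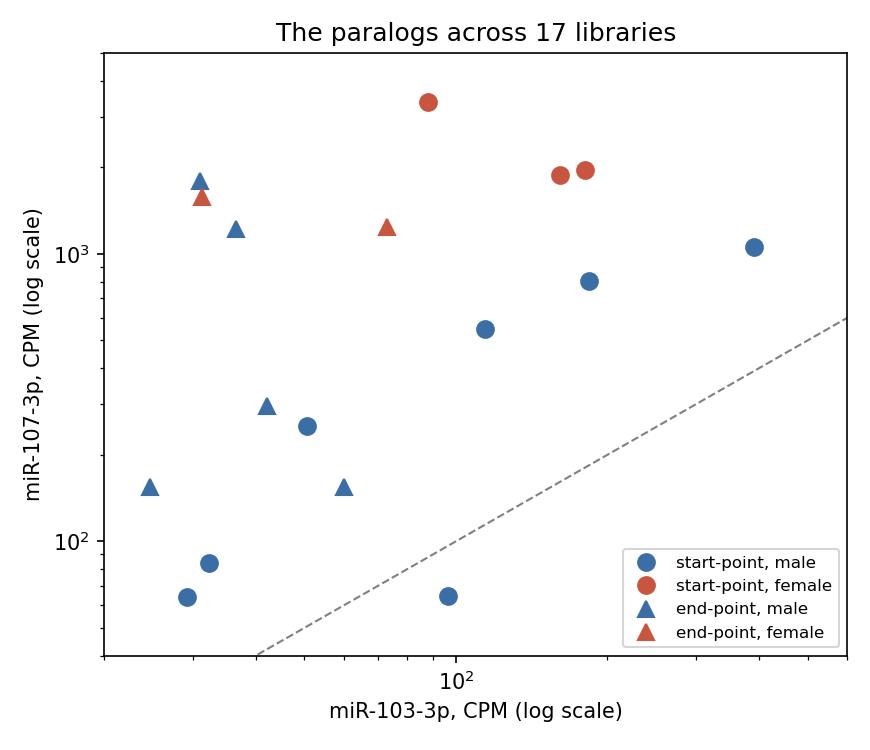
Level of miR-107-3p against miR-103-3p in 17 libraries, in CPM on log axes. Circles are start-point and triangles end-point libraries, red female and blue male, and the dashed line marks equal levels. In 16 of 17 libraries the point lies above the line. On this scale, without TMM factors, r of the log2 values was 0.38.

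Other smRNAs followed each arm more closely than its paralog did. By Spearman's rho of log2 CPM over the 17 libraries, those most like miR-103-3p were miR-429-3p (0.76), miR-26a-5p (0.76), miR-7086-5p (0.75), miR-1947-5p (0.74) and miR-1839-3p (0.73). miR-429-3p is a member of the epithelial miR-200 family, of which no other member was among these 5. Among 1269 candidates miR-107-3p ranked 774 for likeness to miR-103-3p, on the TMM scale, where their rho was -0.03. Ranks were not computed with library totals only, where their rho was 0.34. Those most like miR-107-3p were miR-666-5p (0.90), miR-1901 (0.84), miR-7210-5p (0.82), miR-551b-5p (0.80) and miR-466d-3p (0.79), and miR-103-3p ranked 633. The rho of miR-666-5p with miR-107-3p was 0.93 within the start-point and 0.96 within the end-point libraries. Of these 10, miR-1901 (log2 fold change 2.20, edgeR adjusted p 0.00599) and miR-551b-5p (1.86, edgeR adjusted p 0.00745) rose from the start-point to the end-point, and the others did not pass. These are the highest of many correlations among libraries that share depth and scaling, and they are given as a description.

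The seed relatives listed are mainly the miR-15 and miR-16 family, known for restraining the cell cycle, most of which carry AGCAGCA (miR-503-5p, also listed, does not). Of 8 listed, 5 were in the table, and 2 passed the filter, with a median log2 fold change of 1.33 beside -0.18 over all smRNAs tested. Neither was called. miR-16-5p averaged 738 ± 294 CPM over start-point libraries (SD, n = 10) and 1114 ± 1774 CPM over end-point libraries (SD, n = 7), and its log2 fold change was 1.17 ± 0.62 (SE; edgeR adjusted p 0.145). End-point levels ran from 186 CPM to 5073 CPM in library 5, which encloses the start-point range of 382 to 1256 CPM, and without library 5 the log2 fold change was -0.05. miR-497a-5p averaged 132 CPM and 368 CPM, with a log2 fold change of 1.48 ± 0.61 (SE; edgeR adjusted p 0.0622). Without the libraries under 75000 counts miR-16-5p was called at 1.97 (edgeR adjusted p 0.0124) and miR-15a-5p at 1.39 (edgeR adjusted p 0.0165), while miR-497a-5p was at -1.19 (edgeR adjusted p 0.0687). miR-497a-5p was called instead without end-point library 2, 4, 5 or 6, at 1.65 to 1.68.

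Other miRNAs studied in glucose and lipid metabolism were called at no higher share than all smRNAs tested in the main fit, with TMM scaling. Of 24 listed, 19 were in the table and 15 were tested. In edgeR 3 rose and 1 fell, so 4 of 15 were called beside 33.7% of all smRNAs tested, and the median log2 fold change over the 15 was -0.32 beside -0.18 over all. The share turned with the scaling. With library totals only, 8 of the 15 were called, a higher share than the 480 of 1270 over all smRNAs tested. miR-122-5p, the main miRNA of hepatocytes and a regulator of cholesterol and fatty acid metabolism, rose by 5.29 ± 0.82 on the log2 scale (SE; edgeR adjusted p 5.81e-05), from 54.8 ± 37.1 CPM at the start-point (SD, n = 10) to 1471 ± 1552 CPM (SD, n = 7). miR-130a-3p, a repressor of the adipocyte factor PPARγ, rose by 3.53 (edgeR adjusted p 0.00117). miR-143-3p, abundant in smooth muscle and also studied in adipocytes, rose by 2.87 (edgeR adjusted p 0.000585). miR-375-3p, a miRNA of insulin-secreting and enteroendocrine cells, fell by 2.30 on the log2 scale (edgeR adjusted p 0.0213).

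With mouse identity as a block miR-130a-3p lost its call (edgeR adjusted p 0.161), and with the second library of mouse 1 also left out all 4 did, with edgeR adjusted p from 0.0577 to 0.346. In male libraries only miR-143-3p and miR-375-3p were not called, with edgeR adjusted p of 0.0508 and 0.0646. miR-375-3p was not called without end-point library 7 (edgeR adjusted p 0.0595) or without the 3 libraries of lowest depth (0.172). This miRNA is also a member of the epithelium list, of which 3 rose and 3 fell among 8 tested. The liver and exocrine pancreas list had 2 of 3 called higher, the leukocyte list 1 of 3 and the smooth muscle and stroma list 1 of 3, and the red cell list had 0 of 1 called. Over all smRNAs tested 17.4% were called higher and 16.3% lower, so counts over lists of 1 to 3 tested members show nothing particular to them.

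**Figure D5:**
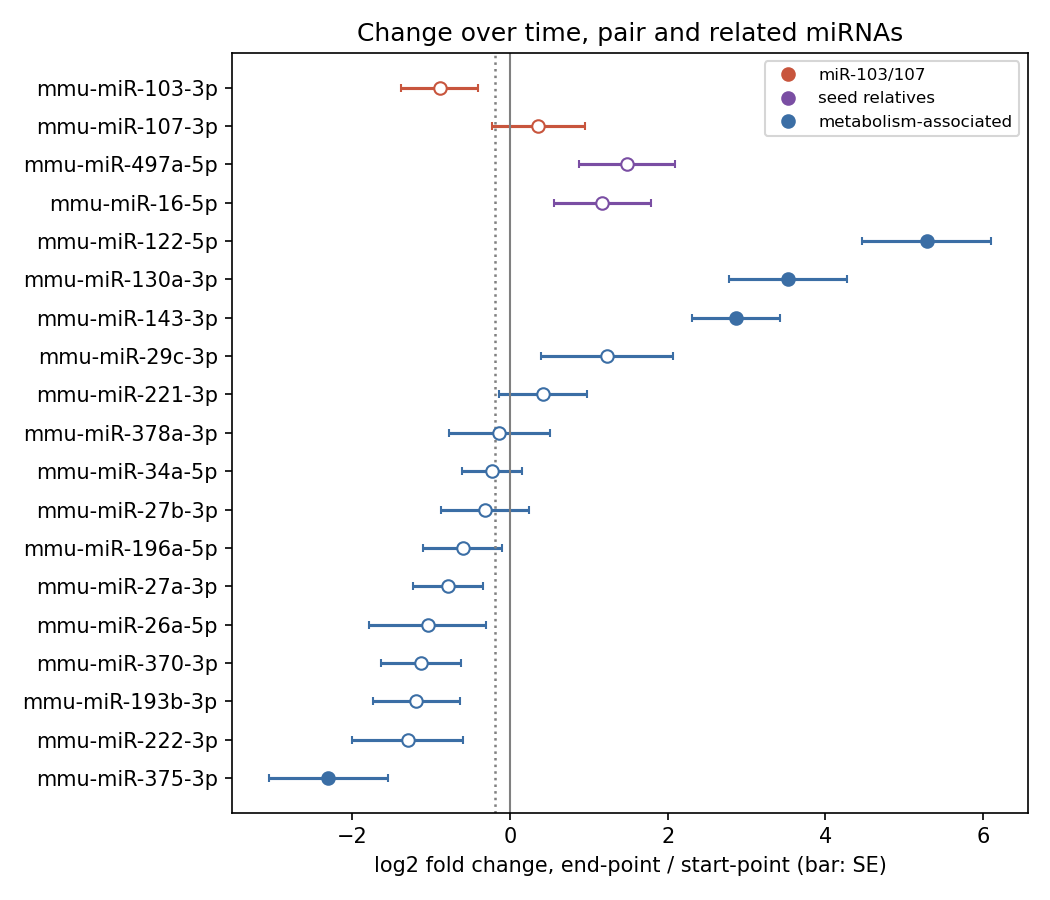
Log2 fold change, end-point over start-point, of the 2 listed arms, their tested seed relatives and the tested metabolism-associated miRNAs, with SE. Filled points passed an adjusted p of 0.05 in edgeR, the grey line marks 0 and the dotted line the median of all tested smRNAs, -0.18. miR-103-3p, at -0.89, and miR-107-3p, at 0.36, are open points nearer to 0 than the 4 that passed.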

How the data were processed

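The authors deposited whole-number counts per smRNA and library (1439 mature miRNAs and 48 piRNA loci), without normalization. Per the submitters' processing notes, bcl2fastq and GRCm38 were used; the aligner, counting tool, use of molecular identifiers and assignment of shared reads are not given in the sources used here. Counts were tested with edgeR 4.0.16 in R 4.3.3 (glmQLFit with legacy=FALSE, glmQLFTest), with TMM factors, filterByExpr (minimum count 10) and Benjamini-Hochberg adjustment over all smRNAs tested. CPM are counts over library totals, and log2 CPM were scaled by TMM with 2 as the prior count. DESeq2 1.42.0 was an alternative. The SE is the log2 fold change over the square root of F. Exact permutation tests enumerated all splits; correlations used 100000 resamples (scipy 1.17.1).

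Libraries were grouped by the labelled time point and paired by labelled mouse identity. For the 7 start-point and end-point pairs of 1 mouse, deviations from the group means correlated at 0.094 on average (-0.072 to 0.26). No pair of libraries agreed within sampling noise (chi-square per degree of freedom at least 8.93). End-point libraries 1 and 2 share a mouse label, so p-values over 17 libraries treat more units as independent than there are mice. The named miRNAs are the 5 arms, called members of the lists (the extremes where none was called), and the 5 smRNAs most like each arm. Members and lists were chosen with earlier results of these data known. Scripts were tested on simulated counts.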

Additional observations from a re-analysis of the deposited data

Results flagged for a closer look

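In start-point library 3, a male, miR-103-3p stood at 392 CPM, far above the next start-point library at 183 CPM, both among all 10 start-point libraries and among the 7 male ones. In start-point library 6, also a male, the log2 ratio of miR-103-3p to miR-107-3p was 0.55, far above the other 6 males, which ran from -2.26 to -1.06. These 3 flags came from 12 groups of values tested for a single distant library. The groups overlap, and start-point library 3 was flagged both among all start-point libraries and among the males. Chance flags about 1 group in 20 where values are normally distributed, which CPM need not be.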

How the results depend on the processing

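With mouse identity as a replicate block, the log2 fold change was -0.62 for miR-103-3p and 0.64 for miR-107-3p, and the ratio differed by -1.28 (exact sign-flip permutation p 0.188, smallest possible 0.0312); the block changed no call of either arm. With library totals only, miR-103-3p over time passed, at -1.57, miR-107-3p over time reversed, to -0.13, and the sex difference of miR-103-3p reversed, to 0.26. All smRNAs called numbered 104 with the block, 85 with the block and without the second end-point library of mouse 1, and 211 in male libraries only, against 428. The metabolism-associated calls, 4, became 8 with library totals only, 0 with the block and without that second library, and 2 in male libraries only. Over all smRNAs tested, 480 of 1270 were called with library totals only. The seed relative calls, 0, became 1 with the libraries of mouse 1 summed and 2 without the libraries under 75000 counts. The ratio difference, -1.51, became -1.91 in male libraries only. Leaving out 1 library at a time gave 365 to 463 calls, -1.07 to -0.64 for miR-103-3p and 0.14 to 0.86 for miR-107-3p over time, 0 to 1 seed relative and 3 to 6 metabolism-associated calls, -0.62 to 0.086 for miR-103-3p and 1.46 to 1.95 for miR-107-3p by sex, and -1.91 to -1.20 for the ratio. The ratio reached an unadjusted p under 0.05 without start-point library 8 (-1.84, exact permutation p 0.0208) and without end-point library 4 (-1.91, 0.027), and without no other single library. The sex difference of miR-103-3p reversed, to 0.086, without start-point library 3. The causes were not tested. miR-103-3p over time failed the filter, and has no value, in male libraries only and without any 1 of start-point libraries 2, 3, 5, 6, 8, 9 and 10. Its 1 to 11 counts at the end-point limit what can be seen of it.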
